A study of Mus musculus
Mus spretus with 18 samples.

Results

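The kinases that phosphorylate the splicing machinery were followed through 18 RNA-seq libraries of F1 hybrid mice. They are the 8 genes Clk1, Clk2, Clk3, Clk4, Srpk1, Srpk2, Dyrk1a and Prpf4b, picked by gene symbol from all 38924 genes with an expression value. All rows with these symbols were taken from the skipped exon (SE) tables and from the retained intron (RI) table of the fibroblasts. The tables list 102 SE events of the 8 genes, of which 100, covering 64 distinct exons, had at least 20 junction reads in both replicates of a group, out of 116580 such events in the series. The 8 genes hold 6 of the 2243 RI events. Clk4 contributed 21 SE events with that depth, Srpk2 17, Clk1 16, Srpk1 12, Dyrk1a 11, Clk2 and Clk3 8 each and Prpf4b 7. In 34 of the 100 events the mean PSI lay between 0.1 and 0.9 in at least 1 group, treated fibroblasts included. In the others it was above 0.9 or below 0.1 in each group with that depth.

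SR proteins, the splicing factors rich in arginine and serine repeats, work only when these repeats carry the right amount of phosphate. SRPK kinases add phosphate in the cytoplasm, which lets transportin carry the SR proteins into the nucleus, and CLK kinases add more in the nucleus, which releases the SR proteins from nuclear speckles to the sites of splicing. Dyrk1a is a related dual-specificity kinase that acts on splicing factors in speckles, and Prpf4b is a kinase of the tri-snRNP, the particle that joins the spliceosome before its activation. The CLK genes are also known to control themselves through splicing, since transcripts that skip an internal exon or keep the introns around it do not encode a full kinase.

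All samples were F1 hybrids of a C57BL/6J mother and a father of SPRET/EiJ, a strain derived from wild Mus spretus, so that each cell carries both alleles in a shared environment. Cerebral cortex, heart, kidney, lung, spleen and liver came from females of 8 weeks, with 2 animals as the source of the organs, and the embryonic stem cells (ESC) were 2 independent clones grown with inhibitors and LIF. F1 hybrid fibroblasts were treated for 4 h with 0.1 μM pladienolide B, a compound that binds the SF3B complex of the spliceosome, or with the same amount of its solvent DMSO, with 2 libraries in each arm. No label says that the fibroblast libraries came from separate cultures, so p-values in that comparison measure the spread between these samples alone. The labels of the liver name other substrains of C57BL, and the liver libraries, which stem from an earlier study, were used as F1 of C57BL/6J.

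Junction reads over all SE events ranged from 46558287 to 151755602 per library, and those over events of the kinases from 10094 to 90825. The 4 marker genes chosen for each of the 7 tissues were all highest in their own tissue. For the fibroblasts this held for 3 of 4 markers, while Thy1 was highest in cortex. Allelic reads per library ranged from 10338947 to 48555783 on each allele. Expression was deposited in TPM, a share of all transcripts that is scaled for length and so allows a comparison between genes. A few very abundant transcripts take a large part of that share in some groups: the top 50 genes held 44.7 to 48.1% of the TPM in liver and at most 40.9% in heart, but 18.3 to 19.2% in ESC. Differences in TPM were therefore given as deposited and again after each library was centred on the median log2 value of the tested genes. In bulk tissue, fewer cells of a type and less RNA per cell cannot be told apart.

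The SRPK genes had the widest range across tissues. Srpk2 (chr5:23503356-23684642), known as an SR protein kinase with high levels in brain, stood at 122 and 129 TPM in the cortex libraries. It reached 55.4 and 44.0 TPM in ESC, and lay between 17.5 and 24.7 TPM in heart, kidney, lung and spleen. Liver was lowest with 7.07 and 6.62 TPM, so that the means of cortex and liver differed 18.3-fold. Cortex stood apart from every other group, whereas spleen, kidney and lung overlapped one another. Srpk1 (chr17:28587648-28622528), the other kinase of this pair, had another order: 70.2 and 68.0 TPM in ESC, 48.5 and 43.1 in spleen, 31.3 in both cortex libraries, 28.0 and 29.1 in kidney, and 7.2 and 8.02 in liver. No 2 neighbouring groups overlapped in the order of Srpk1, and the highest and lowest tissue differed 9.08-fold.

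3 of the 4 CLK genes were highest in spleen. Clk1 (chr1:58411988-58424088) stood at 134 and 102 TPM in spleen, 74.7 and 63.7 in lung, overlapping 64.5 and 54.4 in cortex, and 48.0 and 39.8 in kidney. ESC had 31.3 and 23.8 TPM of Clk1, while heart (20.4 and 21.1) and liver (21.8 and 17.6) overlapped at the low end. Clk2 (chr3:89164795-89177087) ranged from 62.8 and 48.1 TPM in spleen to 7.70 and 6.97 in liver, and Clk3 (chr9:57750621-57766235) from 117 and 100.5 in spleen to 25.6 and 24.8 in liver. The spleen values of Clk3 overlapped those of ESC, where the clones differed widely, with 102 and 62.8 TPM. Clk4 (chr11:51263114-51281770), the closest relative of Clk1, was as high in cortex (61.0 and 54.1 TPM) as in spleen (62.1 and 51.0) and low in heart (15.0 and 16.5), ESC (17.5 and 14.1) and liver (19.0 and 16.7), where heart had the lowest mean but overlapped ESC, and ESC overlapped liver. Its range of 3.66-fold was the narrowest of the 8 genes.

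Dyrk1a (chr16:94569947-94695519), a kinase known for its dosage sensitivity in brain development, was among the lower ones, at 38.0 and 22.5 TPM in ESC, 27.6 and 28.9 in cortex and 28.0 and 25.3 in spleen. These 3 tissues overlapped, and liver was lowest with 5.61 and 5.47 TPM. Prpf4b (chr13:34874820-34906064) stood at 91 and 88.4 TPM in cortex, 66.7 and 72.8 in spleen, 57.8 and 74.7 in ESC and 18.3 and 19.1 in liver, where it was lowest. DMSO-treated fibroblasts, whose libraries had longer reads than the tissues by the effective lengths in the tables, had 76.6 and 75.6 TPM of Prpf4b. Over all 8 genes, 18 of 64 pairs of groups that are neighbours in order of level overlapped. The summed TPM of the kinases was highest in spleen (543 and 465) and cortex (489 and 478) and lowest among the tissues in liver (112 and 105).

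**Figure D1:**
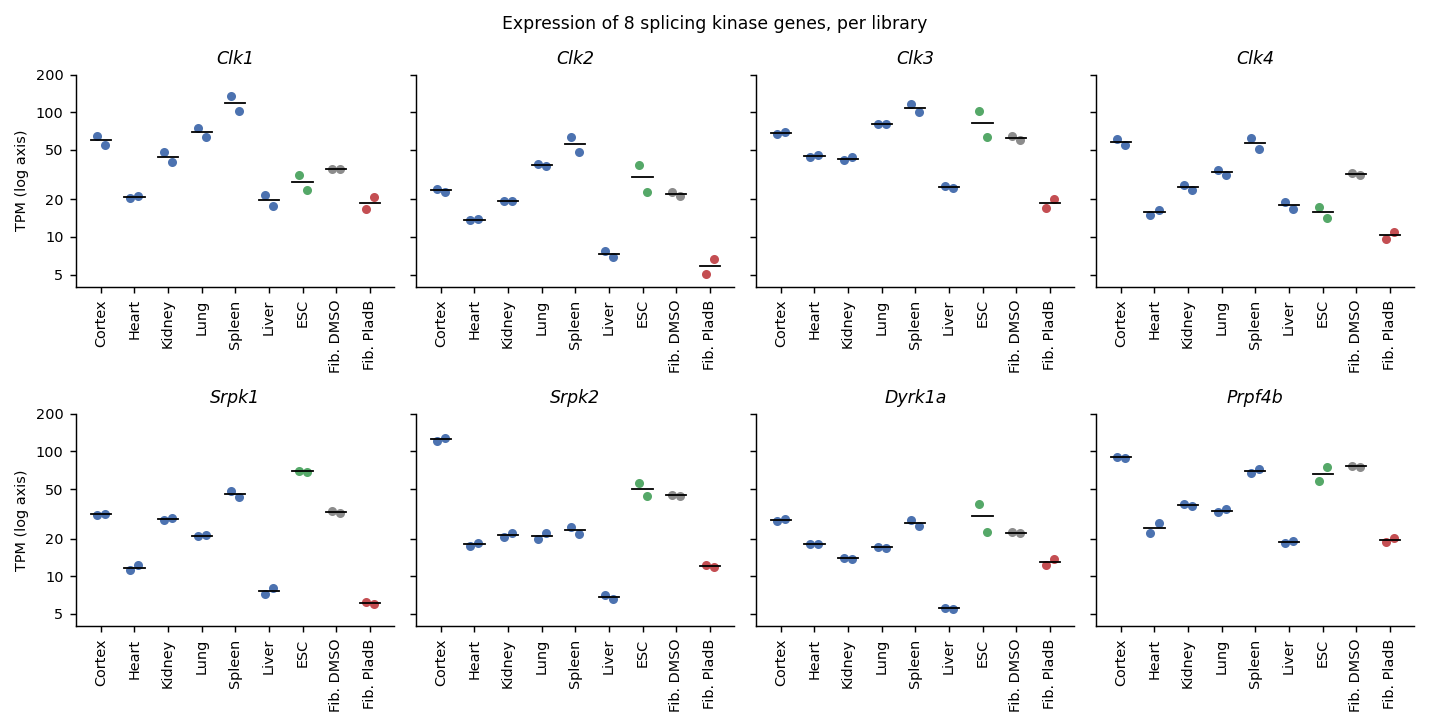
TPM (log axis) of each of the 8 kinases in every library, by group, with 2 points per group and a line at their mean. By these means, liver is lowest among the 7 tissues for all genes but Clk4, spleen is highest for Clk1, Clk2 and Clk3, cortex for Srpk2, Prpf4b and Clk4, and ESC for Srpk1 and Dyrk1a, and all 8 genes are lower with pladienolide B (PladB) than with DMSO.

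The question whether a tissue departs from the rest was tested with limma on log2(TPM + 0.1), each tissue against the mean of the 6 others, with p-values adjusted by the Benjamini-Hochberg method over 21925 genes. All 8 kinases differed among the 7 tissues in the F test, as did 99.5% of all genes. Of 56 comparisons of 1 gene in 1 tissue, 47 passed an adjusted p of 0.05, of which 23 were lower. Because so many genes passed and because the scale matters, directions are given where both scalings had the same call: this left 14 higher and 13 lower calls, while 7 calls had opposite directions. The median difference of all genes was not 0 after centring either. It was -0.51 in cortex, -0.38 in lung, -0.32 in spleen, -0.29 in kidney, -0.05 in heart, -0.02 in ESC and 0.26 in liver.

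In spleen, 7 of 8 kinases were higher, against 43.8% of all genes, and 6 were higher under both scalings (29.9% of all genes after centring). The log2 difference was 1.72 ± 0.14 (SE) for Clk1, 1.5 ± 0.15 for Clk2, 1.21 ± 0.11 for Clk4 and 1.05 ± 0.14 for Clk3, with limma adjusted p of 2.29e-06, 1.02e-05, 3.37e-06 and 6.12e-05. The median over all genes was 0.17. Srpk2 was the exception, with -0.19 ± 0.09 (limma adjusted p = 0.0853), and was called lower after centring alone. Lower calls took 34.2% of all genes as deposited and 48.1% after centring in spleen. In cortex, 6 kinases were higher (50.4% of all genes) and none lower (31.1%). Srpk2 (log2 difference 2.64 ± 0.09, limma adjusted p = 2.65e-09), Prpf4b (1.27 ± 0.10) and Clk4 (1.24 ± 0.11) stayed higher after centring (30.5% of all genes). Srpk1 (-0.48 after centring) and Clk1 (-0.31) turned to lower calls, though both lay above the centred median of all genes in cortex. Clk2 (-0.80) and Clk3 (-0.63) became lower calls as well (53.1% of all genes). In ESC, 6 were higher (48.6%) and 2 lower (34.4%). Both scalings had Srpk1 (1.74 ± 0.07, limma adjusted p = 7.46e-09), Srpk2 (1.08 ± 0.09), Dyrk1a (0.85 ± 0.15) and Prpf4b (0.75 ± 0.10) higher and Clk4 (-0.93 ± 0.11) and Clk1 (-0.72 ± 0.14) lower, next to 41.3% and 42% of all genes after centring.

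In liver, all 8 were lower, but so were 80.5% of all genes, with a median of -1.52 on the log2 scale, and 10.4% were higher. After centring, liver had 2 kinases lower (27% of all genes), Srpk2 at -0.45 and Srpk1 at -0.18, and 4 higher (43.7%), Clk4 at 1.06, Clk1 at 0.50, Prpf4b at 0.42 and Clk3 at 0.38. The direction of these 4 genes in liver thus depends on the scaling, as it does for Clk4 in lung (-0.24 after centring, above the centred median of all genes there). In heart, 7 were lower (60% of all genes, with 18.7% higher), and Srpk1, Clk1 and Clk4 were so under both scalings (33.1% after centring), whereas Dyrk1a was higher after centring (0.70, 33.7% of all genes). In kidney, 3 were lower (37.1%), namely Clk3, Dyrk1a and Srpk2, and Srpk1 was higher (29.3%) as deposited alone. After centring, 6 were lower in kidney (44.4% of all genes) and none of the 8 higher (25%). In lung, 4 were higher (41.8%) and 3 lower (28.5%). Clk2 was higher there under both scalings (0.87 ± 0.15, limma adjusted p = 6.11e-04, 26.2% of all genes higher after centring), and Srpk1, Srpk2 and Prpf4b were lower (49.1% after centring), which was lost for these 3 without the first lung library (limma adjusted p of 0.0878, 0.0859 and 0.0587). The kidney difference of Dyrk1a (-0.39, limma adjusted p = 0.0394) was the least firm. It was not called without a filter on low TPM (limma adjusted p = 0.0542), nor in 11 of 14 fits that left out 1 library (limma adjusted p from 0.0554 to 0.169), the first and second kidney libraries among them.

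Across the means of the 9 groups, which share libraries and normalization, Pearson's r of log2(TPM + 0.1) between pairs of kinases ranged from 0.417 (Clk1 and Srpk2) to 0.979 (Clk2 and Clk3), with a median of 0.748 over 28 pairs. Over the 7 tissues alone, Clk2 and Clk3 had r = 0.970, and Clk1 and Clk4 had 0.9. Outside the set, the genes with the most similar levels over the 9 groups were Rbm22 for Clk3 (r = 0.992), Supt20 for Srpk1 (0.992), Arid4b for Prpf4b (0.990), Ddhd2 for Srpk2 (0.987), Cdc25b for Clk2 (0.984), Ttpal for Clk4 (0.981), Dhps for Dyrk1a (0.974) and 6330418K02Rik for Clk1 (0.970). These were the best of all genes with enough expression, so high values were bound to occur.

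Splicing of the kinases across tissues was measured as PSI, the share of transcripts that include an exon, from the inclusion and skipping junction reads per effective length. A quasi-binomial logistic model was used, and an event was called with an adjusted p below 0.05 and a range of mean PSI of at least 0.1 over the tissues. Of 50 kinase events that could be tested, 11 were called, or 8 exons, against 8.5% of 47963 events in all. They lay in Clk4 (7 of 13 events), Clk2 (3 of 5) and Clk1 (1 of 6). No event of Clk3, Srpk1, Srpk2, Dyrk1a or Prpf4b was called among 26 tested, and 2 of these had an unadjusted p below 0.05.

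The called exon of Clk1 (chr1:58420121-58420211, 91 bases, minus strand) is the known alternative exon ahead of the kinase domain, and its length is not a multiple of 3. Its PSI was 0.906 and 0.877 in kidney, 0.841 and 0.935 in lung, 0.889 and 0.845 in liver and 0.797 and 0.842 in spleen. Cortex followed with 0.747 and 0.735, heart with 0.597 and 0.669 and ESC with 0.492 and 0.571. ESC thus lay below every organ, kidney and lung had the highest means and overlapped, and the exon had a range of mean PSI of 0.361 (adjusted p = 1.79e-04, quasi-binomial model with 14 libraries). DMSO-treated fibroblasts had 0.462 and 0.491, close to ESC.

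Clk4 holds an exon of the same length (chr11:51273078-51273168, 91 bases, plus strand). Its PSI was 0.788 and 0.809 in lung, 0.748 and 0.783 in spleen, 0.784 and 0.670 in liver, 0.724 and 0.682 in cortex, 0.713 and 0.682 in kidney, 0.566 and 0.572 in heart and 0.498 and 0.371 in ESC (range 0.364, adjusted p = 3.53e-04). Heart and ESC were again the lowest tissues, with no overlap with the others. Over the 7 tissues the mean PSI of the Clk1 and Clk4 exons had a Pearson's r of 0.921, as a description of points that come from the same libraries. Clk1 and Clk4 are close paralogues, and how reads that match both were counted is not given in the sources used here.

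The alternative exon of Clk2 between its introns of 691 and 346 bases has 2 forms that share the end and differ by 3 bases at the start (chr3:89169615-89169702, 88 bases, and chr3:89169618-89169702, 85 bases, plus strand). The longer form had PSI of 0.881 and 0.918 in cortex, 0.867 and 0.899 in heart, 0.777 and 0.845 in lung, 0.668 and 0.707 in spleen, 0.696 and 0.671 in ESC, 0.678 and 0.669 in liver and 0.656 and 0.614 in kidney. Here cortex and heart stood above all other tissues, and kidney was lowest (range 0.264, adjusted p = 5.01e-04). The order differed from that of Clk1, with r = -0.263 between both exons over the 7 tissues. The shorter form (range 0.288, adjusted p = 7.42e-04) shares the skipping reads and had nearly the same profile (r = 0.999). A 133-base exon of Clk2 (chr3:89166682-89166814) was rarely used, from 0.116 and 0.0943 in cortex to 0.00498 and 0.00365 in ESC, and its range of 0.101 fell to 0.0900 without the first cortex library.

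**Figure D2:**
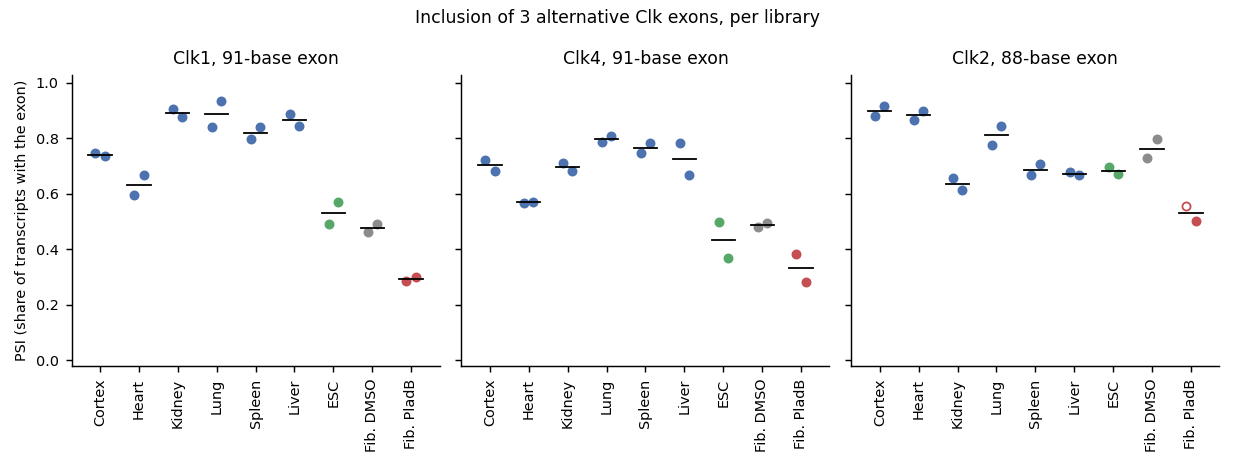
PSI of the 91-base exons of Clk1 and Clk4 and of the 88-base exon of Clk2 in every library, by group, with a line at the mean of 2 libraries and an open circle where a library had under 20 reads. ESC and the fibroblasts are lowest for Clk1 and Clk4, cortex and heart are highest for Clk2, and the PladB points lie below the DMSO points in all 3 panels.

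The 5′ part of Clk4 varied most. Between the exon ending at 51267331 and the one starting at 51271800 lie 3 alternative exons of 67 bases (chr11:51268165-51268231), 78 bases (chr11:51268769-51268846) and 59 bases (chr11:51270537-51270595), and their events share junctions, so they do not count as independent. Among transcripts that join to the 59-base exon, the 67-base exon had PSI of 0.845 and 0.805 in cortex, 0.838 and 0.653 in heart, 0.678 and 0.719 in kidney and 0.593 and 0.549 in liver. Lung had 0.468 and 0.456, ESC 0.356 and 0.347 and spleen 0.217 and 0.214. Cortex and spleen lay at opposite ends, with a range of mean PSI of 0.609 (adjusted p = 1.10e-06), the widest of all kinase events. The 59-base exon, seen from transcripts with the 67-base exon, ran the other way: 0.986 and 0.952 in spleen, 0.844 and 0.943 in ESC, 0.890 and 0.845 in liver, 0.807 and 0.769 in lung, 0.637 and 0.643 in kidney, 0.501 and 0.508 in heart and 0.410 and 0.456 in cortex (range 0.536, adjusted p = 4.38e-06). Over the 7 tissues r between them was -0.928, to which the junction that both use contributes.

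Of the remaining Clk4 calls, the 67-base exon against direct joining to the exon at 51271800 had a range of 0.302 (adjusted p = 2.28e-05) and cortex was highest again, with 0.373 and 0.367. The 78-base exon was highest in cortex as well, with 0.278 and 0.196 in one event and 0.725 and 0.622 in another, but rested on 61 to 138 reads there, and both calls were lost without either cortex library, the first also without either spleen library. The 59-base exon, from the exon ending at 51267331, had its highest mean in spleen (0.319 and 0.386), between the ESC clones (0.158 and 0.437). Its range of 0.201 had an adjusted p of 0.0412 and lost its call in 12 of 14 fits that leave out 1 library, all but those without an ESC library.

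**Figure D3:**
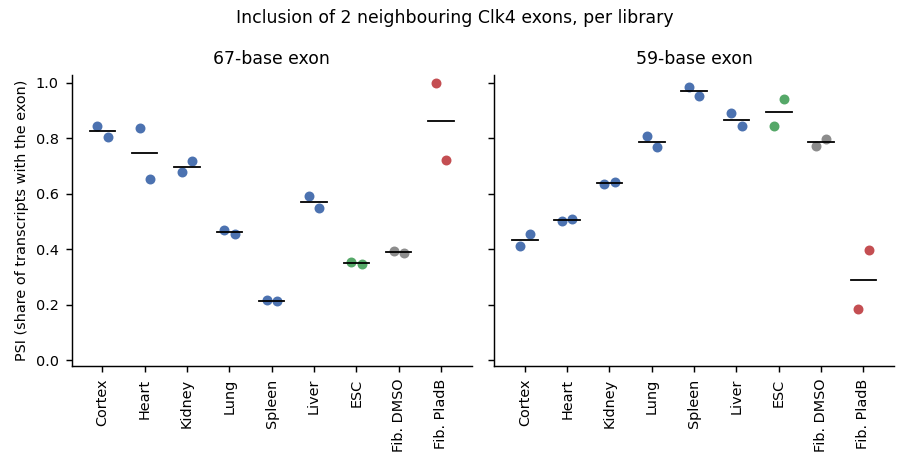
PSI of the 67-base and the 59-base exon of Clk4 in every library, by group, each event sharing 1 junction with the other, with a line at the mean of 2 libraries. Among the 7 tissues cortex has the highest mean for the 67-base exon (0.845 and 0.805) and the lowest for the 59-base exon, and spleen is the reverse. In these events, that of the 67-base exon on 20 and 38 treated reads, pladienolide B moved the exons in opposite directions. The deeper event of the 67-base exon, against direct joining to the exon at 51271800, is not shown and was not called after treatment.

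SR proteins are the main substrates of these kinases and have alternative exons of their own. Of 45 events of SR protein genes tested across tissues, 5 were called, none of 16 in related Dyrk, Hipk and Srpk genes, none of 28 in genes of SR protein import and dephosphorylation and 1 of 26 in tri-snRNP partners of Prpf4b, next to the 8.5% of all events.

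What the inhibition of SF3B does to these kinases was asked in the fibroblasts. Pladienolide B lowered the TPM of all 8 (limma adjusted p between 3.89e-06 and 0.001), as it did for 73.4% of 13577 genes, with a median log2 change of -1.15. Srpk1 fell furthest, from 33.1 and 32.0 to 6.25 and 6.02 TPM (5.30-fold, log2 change -2.39 ± 0.05). Prpf4b went from 76.6 and 75.6 to 18.8 and 20.3 TPM (3.89-fold), Clk2 from 22.8 and 21.3 to 5.09 and 6.64 (3.76-fold) and Srpk2 from 44.8 and 44.1 to 12.4 and 11.9 (3.66-fold). Clk3 dropped from 64.9 and 59.4 to 17.0 and 20.3 TPM (3.34-fold) and Clk4 from 32.6 and 31.4 to 9.72 and 11 (3.08-fold). Clk1, from 35.1 and 35.2 to 16.6 and 20.9 (1.87-fold), and Dyrk1a, from 22.5 and 22.1 to 12.4 and 13.7 (1.71-fold), fell least. For none of the 8 genes did the treated and control libraries overlap, which was not counted over all genes.

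Against the fall of all genes the kinases split. As deposited, 15.6% of genes were called higher and 73.4% lower, and after centring 51.4% were higher and 36.2% lower. On that scale Srpk1 (-0.94), Prpf4b (-0.51), Clk2 (-0.46), Srpk2 (-0.41) and Clk3 (-0.29) were still called lower, Clk4 (-0.17, limma adjusted p = 0.061) was not called, and Dyrk1a (0.68) and Clk1 (0.54) were called higher. The median of all genes on the centred scale was 0.29.

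**Figure D4:**
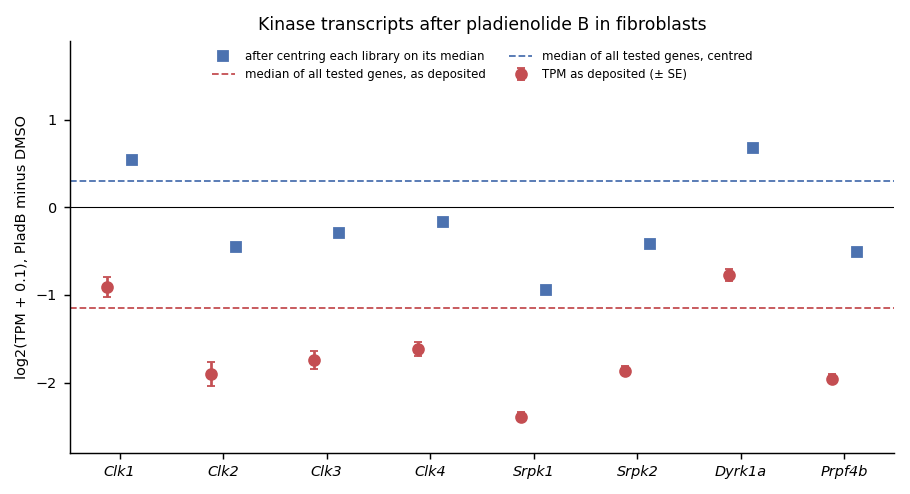
Log2 change in TPM (PladB minus DMSO, pseudocount 0.1) of each kinase in fibroblasts, as deposited (circles, with bars of ± SE from limma over 2 libraries per arm) and after centring each library on its median (squares), with dashed lines at the median of all 13577 genes. All 8 circles lie below 0, Srpk1 lowest at -2.39, and the squares of Clk1 and Dyrk1a lie above 0.

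The partners of the kinases differed in how far they fell. All 12 tested SR protein genes were lower, with a median log2 change of -0.76. Of the most abundant, Srsf5 (226 and 217 to 142 and 146 TPM), Srsf2 (244 and 247 to 196 and 192) and Srsf7 (160 and 159 to 111 and 110) fell less than that median and Srsf6 (150 and 140 to 58.3 and 60.4) more. After centring 9 of them were higher and 3 lower. Of 6 related kinases tested, 4 were lower (median -0.50), among them Hipk3 (49.4 and 49.2 to 13.8 and 13.7 TPM) and Hipk1 (37.8 and 35.4 to 11 and 10.3), with 4 higher and 2 lower after centring. All 5 genes of SR protein import and dephosphorylation were lower (median -1.71), from Ppp1r8, a nuclear subunit of protein phosphatase 1 (40.2 and 42.8 to 5.54 and 5.18 TPM), to Ppp1ca, a catalytic subunit (680 and 692 to 599 and 558), and centring left 3 lower and 1 higher. All 6 tri-snRNP partners were lower (median -1.34), Prpf6 (58 and 55.1 to 11.5 and 11.3 TPM) far more than Prpf8 (157 and 140 to 96.3 and 88.6), and after centring 3 were lower and 3 higher. The median of the 8 kinases was -1.80.

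The exons of the kinases were skipped more after pladienolide B. Of 72 kinase events tested, 24 were called, covering 19 exons, of which 23 had a lower PSI and 1 a higher one. Among all 54535 events, 9.05% were called, 8.83% lower and 0.216% higher. Calls were made in 9 of 15 events of Clk1, 5 of 13 of Clk4, and 2 each in Clk2 (of 5), Clk3 (of 6), Srpk1 (of 9), Dyrk1a (of 7) and Prpf4b (of 4). Srpk2 had none called in 13 events, with changes between -0.0709 and 0.00293, although 7 of these had an unadjusted p below 0.05. In events with a DMSO PSI of 0.9 or more, 18 of 63 kinase events were called lower, against 8.6% of all such events, and below 0.9 it was 5 of 9, against 11.5%. The median change over the kinase events was -0.0288, and over all events -0.00524. Many of these events rest on the same junctions, and 15 of the 19 called exons (78.9%) had a length that is not a multiple of 3, next to 60.8% of all called exons, but so had 80.4% of the tested exons of the kinases.

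Clk1 lost exons that the DMSO libraries included almost fully. The 167-base exon (chr1:58417013-58417179), within the gene body, had PSI of 0.998 and 1.00 with DMSO and 0.214 and 0.202 with pladienolide B when joined around the 95-base exon (adjusted p = 8.70e-18), and 0.983 and 0.982 against 0.495 and 0.429 in the event that includes the 95-base exon. The neighbouring 95-base exon (chr1:58414590-58414684) went from 0.998 and 1.00 to 0.484 and 0.515 when joined past the 167-base exon (adjusted p = 1.47e-15), while its mean PSI when spliced to that exon went from 1.00 to 0.958 without a call. The events at 0.214 and 0.202 and at 0.484 and 0.515 have the same skipping reads, 1 and 0 with DMSO and 55 and 79 with pladienolide B. Their skipped form leaves out both exons together, so they do not count as independent. The other calls of Clk1 among exons that were included almost fully with DMSO, of 80, 91, 95 and 117 bases, had treated PSI between 0.757 and 0.939. The called events of the 91-base and 80-base exons that skip both together have the same treated skipping reads, 4 and 30. Those of the 95-base and 117-base exons likewise have 12 and 17 in common. Neither pair counts as independent. The 117-base exon when spliced to the 95-base exon had a mean PSI of 0.995 after treatment and was not called. The 91-base exon that differed between tissues fell from 0.462 and 0.491 to 0.287 and 0.301 (adjusted p = 0.0176), on 51 and 88 treated reads, and lost its call without either treated library.

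In Clk4 the 161-base exon at the 5′ end (chr11:51267171-51267331) went from 0.945 and 0.950 to 0.404 and 0.457 (adjusted p = 4.69e-20), with 765 and 1072 treated reads, the deepest of the called events. Where the 161-base exon is spliced to the 59-base exon, its mean PSI was 1.00 with DMSO and 0.993 with pladienolide B, with no call on at least 304 reads. When joined to the exon ending at 51263269, the 59-base exon had PSI of 0.630 and 0.610 with DMSO. With pladienolide B it had 0.0153 and 0.0229. The skipped form of that event leaves out the 161-base exon as well. Its skipping reads are those of the called 161-base event, 54 and 51 with DMSO and 325 and 400 with pladienolide B. These 2 calls thus do not count as independent. The 59-base exon also fell in its 2 other events, from 0.774 and 0.799 to 0.186 and 0.397 and from 0.218 and 0.235 to 0.0254 and 0.103. The 67-base exon ahead of it was the only kinase exon called higher, from 0.393 and 0.387 to 1.00 and 0.722 (adjusted p = 0.00184), on 20 and 38 treated reads. In called events that share a junction, the exons thus moved in opposite directions. Against direct joining to the exon at 51271800, the 67-base exon had a mean PSI of 0.111 with DMSO and 0.162 with pladienolide B. That event had at least 171 reads per library and was not called (adjusted p = 0.137, quasi-binomial model). Spliced to the exon starting at 51268769, the 67-base exon had 0.905 and 1.00, on at least 24 reads, also without a call. The 91-base exon of Clk4 had 0.479 and 0.497 with DMSO and 0.384 and 0.283 with pladienolide B and was not called (adjusted p = 0.0731). The 88-base exon of Clk2 had 18 and 26 treated reads, with PSI of 0.558 and 0.503 against 0.728 and 0.799, and fell short of the 20 reads needed for the test.

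Elsewhere, 2 events of Clk2 were called lower on the same skipping reads, 5 and 22 with pladienolide B. One is a 67-base exon (chr3:89170049-89170115, from 1.00 in both libraries to 0.753 and 0.551). The other is a 501-base exon that spans it, with the same ends as the form that retains the 346-base intron. The 2 events thus rest on 1 skipping junction. In Clk3, a CLK with high levels in testis, a 97-base and a 67-base exon fell in the events that skip both together (from 1.00 to between 0.795 and 0.841). Where these exons of Clk3 are spliced to each other, the mean PSI was 0.960 with DMSO and 0.966 with pladienolide B for the 97-base exon, and 1.00 and 0.974 for the 67-base exon, with no call in either. In Srpk1 the called events of the 26-base exon (chr17:28600869-28600894, from 0.966 and 0.941 to 0.468 and 0.525, adjusted p = 6.97e-09) and of the 214-base exon beside it (chr17:28600243-28600456, from 0.982 and 0.970 to 0.727 and 0.803) have the skipping of both exons together as their skipped form. In the events where each is spliced to the other, the mean PSI went from 0.998 to 0.983 for the 26-base and from 0.970 to 0.955 for the 214-base exon, with no call on at least 268 and 453 reads per library. Dyrk1a had 1 exon with 2 starts, whose 86-base form (chr16:94611419-94611504) went from 0.921 and 0.913 to 0.595 and 0.560 (adjusted p = 1.10e-07) and whose 45-base form from 0.781 and 0.813 to 0.380 and 0.311 (adjusted p = 2.38e-06). In Prpf4b, 2 exons of 115 and 87 bases that had been included at 0.996 or above had 0.813 and 0.832, and 0.850 and 0.917, after treatment. In no called event did the treated and control libraries overlap, which the rule for a call itself favours. Of the other lists, 13 of 79 events of SR proteins (11 lower and 2 higher), 5 of 24 of related kinases, 4 of 43 of import and dephosphorylation genes and 4 of 48 of tri-snRNP partners were called, all lower in the latter 3 lists. With a minimum of 50 reads, 18 of the 24 events were called, and both events of Clk2, both of Clk3 and 2 of Clk4 were not tested.

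All 6 retained introns were called higher after treatment, in Clk1, Clk2 and Clk4, as were 35.3% of 1802 introns in all, while 3% were lower. The 87-base intron of Clk1 (chr1:58417180-58417266), which lies between the 117-base and the 167-base exon, went from 0.0735 and 0.0546 to 0.777 and 0.831 (adjusted p = 3.78e-09). The 1349-base stretch of Clk1 (chr1:58419734-58421082) that contains the 91-base exon had values of 0.448 and 0.482 with DMSO and of 0.775 and 0.765 with pladienolide B. Clk2 has a like region with 3 overlapping events around its 88-base exon. Its first intron of 691 bases went from 0.260 and 0.203 to 0.847 and 0.953, its second of 346 bases from 0.189 and 0.172 to 0.920 and 0.835, and the event over the whole 1125-base stretch (chr3:89168924-89170048) from 0.522 and 0.556 to 0.922 and 0.926. In the events over 1349 and 1125 bases the spliced form is the one that skips the exon inside, on the same skipping reads as the SE event. Transcripts that include that exon are left out there, so these values are not shares of all transcripts and cannot be set beside those of single introns. The 191-base intron of Clk4 (chr11:51275579-51275769) rose from 0.0788 and 0.0735 to 0.597 and 0.405 (adjusted p = 1.08e-06). No library overlapped with the other arm in any of the 6, which the rule for a call itself favours. The mean change was 0.740, 0.669, 0.697 and 0.425 for the single introns of 87, 691, 346 and 191 bases. Over all RI events tested the median change was 0.0371. Retained and not yet spliced introns cannot be told apart in these reads.

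**Figure D5:**
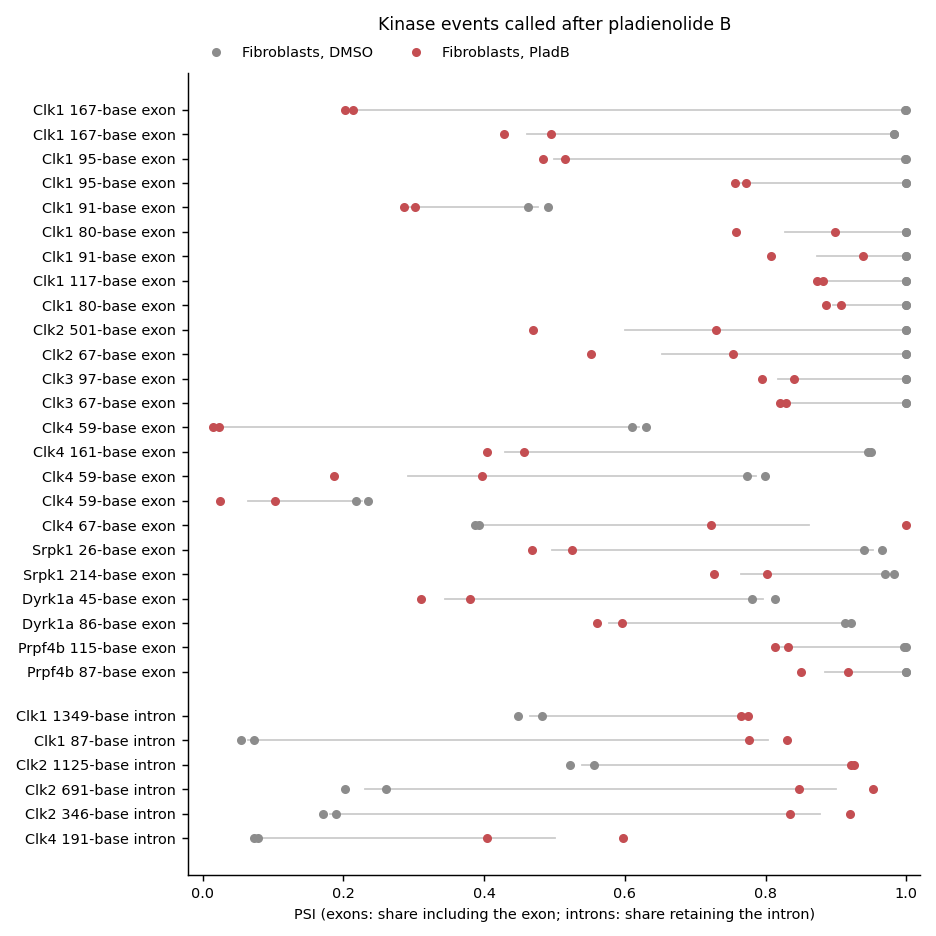
PSI of the 24 called SE events and the 6 RI events of the kinases in the 4 fibroblast libraries (DMSO grey, PladB red), with a line between the means of each arm. All exon events but the 67-base exon of Clk4 moved to lower inclusion, and all 6 RI events to higher values, the 87-base intron of Clk1 furthest (0.0735 and 0.0546 to 0.777 and 0.831).

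In an F1 hybrid both alleles share the same cells, so a difference between them lies in cis. The allele and the parent of origin cannot be told apart, since C57BL/6J was the mother throughout. Allelic PSI was compared in each tissue, with 20 reads per allele and library and with the PSI of all allelic reads within 0.1 of that of all reads. In 141 tests of 47 kinase events over the 7 tissues none was called by the quasi-binomial model, and 13 had an unadjusted p below 0.05. Among all events the share called was 3.08% in kidney, 3.05% in heart, 2.85% in lung, 2.68% in spleen, 2.62% in liver, 2.47% in cortex and 0.0286% in ESC. The median absolute difference of the kinase events was 0.0113, and 6 were at 0.1 or more. With the library as a block, since both alleles come from the same library, 2 of 141 were called, against 3.15% of 155316 tests of all events in the 7 tissues. The share of all events called in that fit was 3.53% in spleen and 4.28% in lung. The 91-base exon of Clk4 had 0.642 and 0.665 on C57BL/6J and 0.797 and 0.759 on SPRET/EiJ in spleen (difference -0.12, adjusted p = 0.0893, with the replicate block 0.0232). In lung the 59-base exon of Clk4 had 0.126 and 0.0387 on C57BL/6J and 0.190 and 0.334 on SPRET/EiJ (difference -0.18, adjusted p = 0.197, with the replicate block 0.0498), on 45 to 69 reads.

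In the fibroblasts 3 of 67 tests were called. With DMSO, where 3.03% of all events were called, 1.59% higher and 1.44% lower on C57BL/6J, the 85-base form of the Clk2 exon had PSI of 0.749 and 0.819 on the C57BL/6J allele and 0.611 and 0.674 on the SPRET/EiJ allele (difference 0.142, adjusted p = 0.0424), and lost its call without either library. Its 88-base form, which shares the skipping reads, had a difference of 0.117 (adjusted p = 0.0839, with the replicate block 0.0243, where 3.46% of all events were called). With pladienolide B, where 2.62% of all events were called, 1.32% higher and 1.29% lower on C57BL/6J, the 95-base exon of Clk1 was skipped more from the C57BL/6J allele, with 0.468 and 0.331 against 0.795 and 0.855 (difference -0.43, adjusted p = 0.00257). The skipped form of that event leaves out the 167-base exon as well. Where the 95-base exon is spliced to the 167-base exon, its mean PSI was 0.968 on C57BL/6J and 0.964 on SPRET/EiJ, without a call. In the event that reaches the farther exon at 58419667 the 95-base exon had 0.479 and 0.511 against 1.00 on both SPRET/EiJ libraries (difference -0.50, adjusted p = 0.00231), on 30 to 51 reads. With DMSO both alleles were included at 0.997 or above.

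Whether the allelic difference itself changed with treatment was tested by the interaction of allele and treatment. None of 11 kinase events was called by the quasi-binomial model, 1 had an unadjusted p below 0.05, and 0.0368% of 13585 events in all were called. For the 95-base exon of Clk1 the difference of differences in PSI was -0.42 (p = 0.814 in the quasi-binomial model, adjusted over 13585 events to 1). That model works on the logit scale, where a PSI at 1 on one allele leaves the term poorly determined, so that this p says nothing about the change. In each library the difference between the alleles was -0.52 and -0.33 with pladienolide B and -0.003 and 0 with DMSO, which do not overlap, and with 2 libraries per arm this difference of differences was not tested in another way. Without the second treated library neither event of this exon was called, without the first the one with the nearer exon was, and with a minimum of 50 reads neither could be tested.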

How the data were processed

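Strand-specific mRNA libraries from 9 groups of 2 were sequenced. The authors aligned reads with HISAT2 2.0.1 to the C57BL/6J genome (mm10) and a SPRET/EiJ genome, keeping up to 2 hits and no soft clipping, and assigned reads by the lesser edit distance. Longer reads of some tissues were trimmed by the authors. They counted genes with featureCounts, by strand, with a read over several genes split between them, and deposited TPM, used here as levels. The authors ran rMATS and deposited its whole-number counts of inclusion and skipping junction reads per replicate and, as a score, the effective length of each form. Deposited columns of inclusion levels, their differences, p-values and FDR hold the authors' own values and comparisons and were not used. Samples were grouped by the labels.

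PSI was computed from counts per effective length. TPM were tested with limma 3.58.1 (R 4.3.3) on log2(TPM + 0.1), for genes with 1 TPM in 2 libraries, with a trended prior. Junction counts of events were fitted by a quasi-binomial logistic model whose dispersion, at least 1, was moderated by limma toward a prior following depth, over all autosomal events with 20 reads in each sample compared. Calls needed an adjusted p (Benjamini-Hochberg, all features) under 0.05 and, for PSI, a difference of 0.1. Python 3.11.15 with numpy 2.4.6, scipy 1.17.1 and pandas 2.3.3 was used, matplotlib 3.10.9 for plots. Scripts were tested on simulated data. Events to be named were all those called, the 3 deepest alternative events of each gene, and all retained introns. Uncalled events of the same exons were added after their values were seen. Like genes were those with the highest correlation, and genes named from lists were among the 4 with the highest mean TPM. The genes, lists and rules were chosen with earlier results of these data known. Gene positions are from RefSeq on GRCm38. Both alleles of a library are paired by that library. Their replicate deviations correlated at 0.0283 to 0.632 over 9 groups, 7 of them above 0.1. Imprinted genes had the allele expected of a C57BL/6J mother in 21 of 21 checks. Alternatives were other pseudocounts, filters, read minimums and priors, median centring, a replicate block and leaving out each library.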

Additional observations from a re-analysis of the deposited data

Results flagged for a closer look

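The 59-base exon of Clk4 (chr11:51270537-51270595), between the exons ending at 51267331 and starting at 51271800, had allelic differences in opposite directions in some groups. PSI on C57BL/6J minus that on SPRET/EiJ was 0.213 in liver and 0.128 in spleen, positive in both libraries of each, but -0.131 in DMSO-treated fibroblasts and -0.18 in lung, negative in both. In liver the values were 0.311 and 0.404 on C57BL/6J and 0.148 and 0.141 on SPRET/EiJ, in spleen 0.352 and 0.507 against 0.248 and 0.356, and in the DMSO libraries 0.164 and 0.183 against 0.334 and 0.275. The liver values rest on 22 to 36 reads per allele and library. Mean differences were smaller in the other groups tested, at -0.016 in cortex, -0.042 in kidney, -0.027 in heart and -0.061 in ESC. The libraries disagreed in sign in heart (-0.165 and 0.111) and in ESC (-0.201 and 0.079). None of these differences was called in its own group in the fit without a block, the one in lung was with the replicate block (adjusted p = 0.0498, quasi-binomial model moderated by limma), and the difference between the groups was not tested.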

How the results depend on the processing

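Of the alternative values of the 8 treatment changes in TPM and of the called events, 488 kept direction and side of the threshold, 30 lost the call and 2 reversed. Not counted there are the tissue calls in TPM, of which 7 had the opposite call with median centring. The 2 reversals also came with median centring, where the log2 change after pladienolide B was 0.54 for Clk1 and 0.68 for Dyrk1a, and where 5 kinases rather than 8 were called lower. Allelic calls in the tissues went from 0 to 2 with the replicate block, and those in fibroblasts from 3 to 1 with a minimum of 50 reads. Leaving out 1 library in turn gave 42 to 51 tissue calls in TPM (47 with all), 19 to 26 of them lower (23), 7 to 12 exon events across tissues (11), 22 to 24 after treatment (24), 1 to 2 allelic calls in fibroblasts (3), 6 of 6 introns, 8 of 8 kinases lower after treatment, and 0 allelic calls in tissues and of the interaction. The 7 came without the first cortex library, which lost the 133-base exon of Clk2, both events of the 78-base and 1 of the 59-base exon of Clk4, and 12 without the second ESC clone, which added the 26-base exon of Srpk1. Without the first treated library the 87-base exon of Prpf4b had a change of -0.0827 and was not called, and without the second the 91-base exon of Clk1 nearest its 3′ end (-0.0609) and 1 event of the 80-base exon (-0.0933) were not. TPM calls lost without 1 library of their tissue, beside Dyrk1a in kidney, were Clk3 and Srpk2 (first kidney library), Srpk1 (second), Srpk1, Srpk2, Prpf4b and Clk4 (first lung library), Clk4 (second), Clk3 (either heart library), Clk1 (first cortex library) and Clk2 (first ESC clone), with limma adjusted p from 0.0587 to 0.454. Without either ESC clone Clk3 was called higher in cortex, Prpf4b lower in kidney and Srpk2 lower in spleen, and without the second also Clk2 lower in kidney. With 1 library left in a group, it was assumed to vary like the other groups. Replicate numbers were not used to pair the tissues or the fibroblasts. Replicate deviations correlated at -0.103 to 0.304 in TPM over 21 pairs of tissues, 6 above 0.1 and all of these between organs. In PSI they correlated at -0.102 to 0.0686, and between the fibroblast arms at -0.136 in TPM. Whether organ libraries with the same number share an animal is not shown by these values. The replicate block changed no call between tissues or between treatments. The cause of these changes was not tested. Depth limited Clk2 and Clk3 after treatment, where libraries had as few as 24 reads for a called event.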
